A study of Drosophila melanogaster with 9 samples.

Results

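The proteasome subunit genes of Drosophila melanogaster were followed through 3 blood cell populations of the fly. The members were all genes of the deposited table whose symbol begins with Prosalpha or Prosbeta, or with Rpn or Rpt and a digit, which gave 47 of 17490 genes. Of these, 32 carry no suffix and encode the canonical subunits, 14 of the core particle (7 alpha and 7 beta subunits) and 18 of the regulatory particle (10 of its base and 8 of its lid). The other 15 carry a T or an R in their suffix and are paralogs of 11 of the canonical genes, 10 of core and 5 of regulatory subunits. The study set the transcriptome of adult blood cells beside those of larval blood cells. The groups were adult hemocytes (AD), flushed with PBS from w1118 females aged 5 days, larval peripheral hemocytes (PH), bled from w1118 female larvae of the wandering stage, and larval lymph glands (LG), whose anterior lobes were dissected from animals of the same genotype, sex and stage. All 3 groups carry the w1118 allele and none was treated. Each group held 3 biological replicates, and every replicate pooled several animals, so that the spread between replicates is a spread between pools.

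The proteasome is the protease that degrades proteins tagged with ubiquitin in the cytoplasm and the nucleus. Its barrel-shaped core particle is built of alpha rings, which gate the entry, around beta rings, which hold the cutting sites inside, and the regulatory particle at its end receives ubiquitylated proteins, removes the ubiquitin, unfolds the chains and feeds them into the barrel. The subunits are assembled in fixed proportions, and in flies, as in mammals, a transcription factor of the Nrf family, encoded by cnc, can raise the transcription of many subunit genes together.

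The values were RPKM (reads per kilobase of exon, relative to a library total per sample). The library totals recovered from the values ran parallel to size factors between samples (median of ratios) and not to the recovered reads. They were 3849900 against 4999411 reads in PH replicate 3, and 9033159 against 6779942 reads in LG replicate 3. This scaling is called as deposited below, and scaling to total reads uses the recovered reads instead. All differences between groups are given on the scale of log2(RPKM + 1), first-named group minus second-named group, with a limma test over all genes tested. A difference is printed with its standard error after ±, from 3 samples in each group. A gene was called when its adjusted p-value was below 0.01 and its fold change above 2. A looser rule, an adjusted p-value below 0.05 at any fold, was added after the values were seen. Between 2920664 and 3201825 reads were recovered from the values per sample in AD, between 4999411 and 6534561 in PH and between 2745573 and 6779942 in LG, and rRNA genes took 43.0 to 46.8% of them in AD, against 47.3 to 61.5% in PH and 43.9 to 49.7% in LG. These totals are below the number of mapped reads per sample stated in the study, a gap that was not resolved, and all read numbers, intervals and read limits here rest on them. In a sample a canonical subunit gene held 30 to 478 reads in AD, against 94 to 1768 in PH and 47 to 2049 in LG. All 10 hemocyte markers were detected, with a summed level of 4918 to 5463 RPKM in AD, against 3562 to 5017 RPKM in PH and 2350 to 2822 RPKM in LG. Against PH, 2 of the 10 were called higher in AD and 2 lower, He (-4.04) and Pxn (-1.29), beside 23% and 13.9% of all genes. Against LG, 5 were called higher in AD and 1 lower, He (-3.99), beside 20% and 10.4% of all genes. The 6 fat body markers, none of them at 0 in all samples, summed to 7492 to 11858 RPKM in AD, against 836 to 1616 RPKM in PH and 43.6 to 103 RPKM in LG, and the 7 muscle markers found, likewise none at 0 in all samples, to 551 to 575 RPKM in AD, against 26.8 to 50.3 RPKM in PH and 225 to 264 RPKM in LG. The fat body sum in AD came from the yolk protein genes Yp1, Yp2 and Yp3, whereas the larval genes Lsp1beta (-6.34), Lsp2 (-4.74) and Fbp1 (-8.68) were called lower in AD than in PH. Of the muscle markers, 4 were called higher in AD than in LG and 1 lower, Act57B (-1.92). Of 9 ovary and germ line markers found, 2 were at 0 in all samples, and their sum was 3.02 to 14.3 RPKM in AD, against 0.035 to 0.67 RPKM in PH and 0.27 to 0.59 RPKM in LG. The part of these markers in the results on the subunit genes was not tested. In these bulk samples, fewer cells of a type and less RNA per cell cannot be told apart.

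The 32 canonical genes were expressed in every sample, and the mean of 30 of them was lowest in AD. Their mean levels ran from 13.2 RPKM (Prosbeta6) to 67.7 RPKM (Rpn6) in AD, with a median of 26.4 RPKM, from 25.5 RPKM (Rpn13) to 134 RPKM (Prosalpha2) in PH, with a median of 53.6 RPKM, and from 17.9 RPKM (Rpn13) to 105 RPKM (Prosalpha2) in LG, with a median of 38.6 RPKM. For 30 of the 32 genes the group means fell in the order PH, LG, AD, and for the ubiquitin receptors Rpn10 and Rpn13 in the order PH, AD, LG. For 19 genes (59.4%) every PH sample was above every LG sample and every LG sample above every AD sample, an order that 4.28% of 8065 expressed genes showed. The order of the subunits by level was much the same in the 3 groups, with a Spearman correlation over the 32 genes of 0.90 for AD with PH, 0.88 for AD with LG and 0.91 for PH with LG. These are descriptions across genes, which share their libraries and are not independent of each other. The genes lie on all large chromosome arms, with 4 on 2L, 10 on 2R, 5 on 3L, 9 on 3R and 4 on X.

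**Figure D1:**
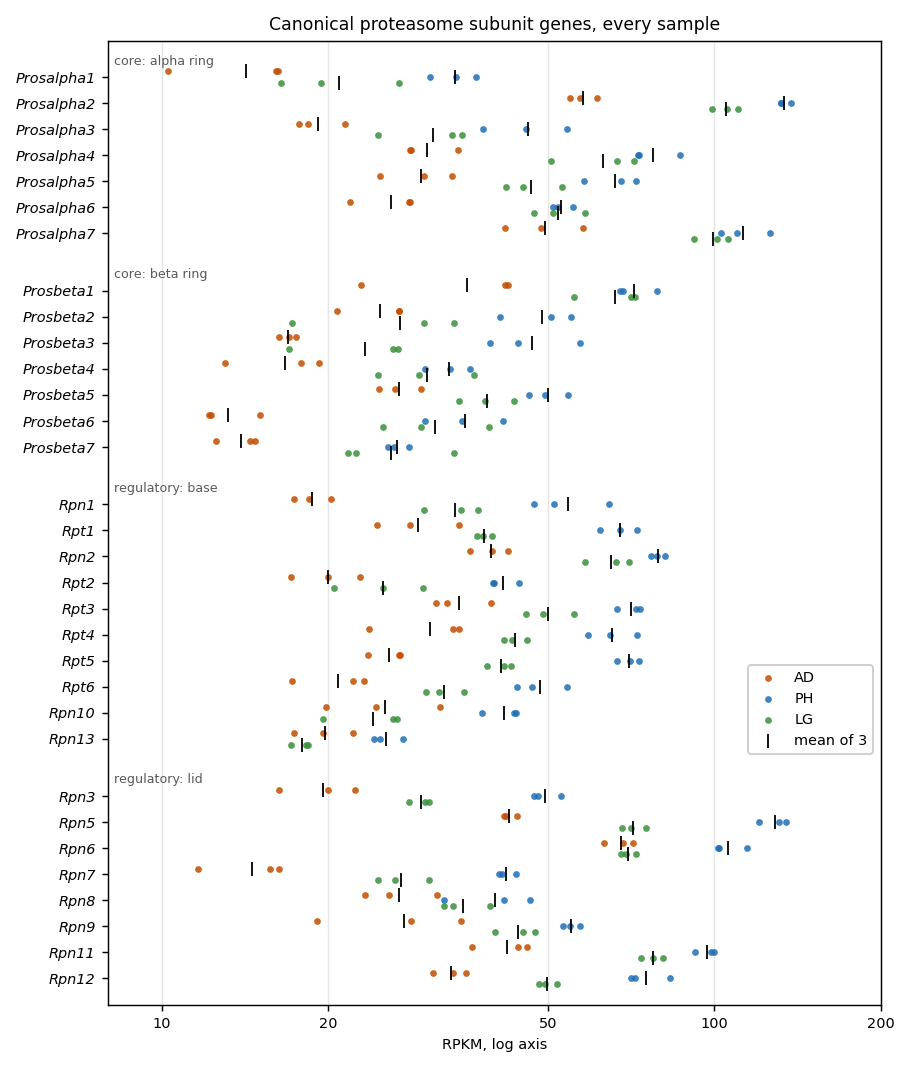
RPKM of the 32 canonical proteasome subunit genes in every sample on a log axis, by part of the particle, with AD in orange, PH in blue, LG in green and a black tick at each group mean. Within each gene the 3 AD points lie left of the 3 PH points, and the group means of AD run from 13.2 to 67.7 RPKM against 25.5 to 134 RPKM in PH and 17.9 to 105 RPKM in LG.

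In AD against PH, 23 of the 32 canonical genes were called lower in AD and none higher, whereas 13.9% of all 7692 genes tested were called lower and 23% higher. At an adjusted p-value below 0.05 at any fold, 31 of the 32 were lower and none higher, against 26.7% of all genes lower and 32.7% higher, the exception being Rpn13. In all 32 genes every AD sample was below every PH sample, which was so for 30.1% of all genes, with 35.3% the other way round. The median difference of the 32 genes was -1.15, and that of all genes tested 0.046. Of the 23 calls, 17 held under each of 16 alternative settings, and those of Prosalpha6, Prosbeta1, Rpn9, Rpt2, Rpt3 and Rpt4 were lost under 3 to 6 of them, among which were fits without 1 library.

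All 7 genes of the alpha ring were called lower in AD than in PH. Prosalpha2, the subunit gene with the highest mean in both larval groups, had 54.7, 57.2 and 61.4 RPKM in AD, 132, 132 and 137 RPKM in PH, and 106, 99.01 and 110.2 RPKM in LG. Prosalpha7 had 41.7, 57.9 and 48.6 RPKM in AD, 126, 109.8 and 103 RPKM in PH, and 106, 101 and 91.9 RPKM in LG. Prosalpha4 had 28.2, 34.3 and 28.3 RPKM in AD, 86.7, 73.1 and 72.9 RPKM in PH, and 71.5, 66.8 and 50.6 RPKM in LG. In these 3 genes no AD sample reached a sample of either larval group, and the difference between AD and PH was -1.20 ± 0.10 (adjusted p = 1.72e-05) in Prosalpha2, -1.18 ± 0.15 (adjusted p = 0.000176) in Prosalpha7 and -1.33 ± 0.13 (adjusted p = 4.81e-05) in Prosalpha4. Prosalpha5 had 29.8, 24.9 and 33.6 RPKM in AD, 72.1, 58.1 and 67.9 RPKM in PH, and 53.02, 41.9 and 45.1 RPKM in LG. Prosalpha6 had 28.2, 21.9 and 27.96 RPKM in AD, 55.6, 52.1 and 50.98 RPKM in PH, and 58.4, 47.2 and 51.1 RPKM in LG. Prosalpha6 had overlapping values in PH and LG, with its AD samples apart from both, and its difference of -1.004 ± 0.13 (adjusted p = 0.000279) between AD and PH lost the call without AD replicate 2 (-0.89) or without PH replicate 1 (-0.97), where it was no longer past the fold threshold. Prosalpha5 differed by -1.14 ± 0.15 (adjusted p = 0.000223) between AD and PH. Prosalpha3, whose tail is central to the closed gate in the yeast particle, had 17.7, 18.4 and 21.4 RPKM in AD, 54.2, 45.6 and 38.2 RPKM in PH, and 24.6, 34.9 and 33.4 RPKM in LG. Prosalpha1 had 16.1, 10.2 and 16.2 RPKM in AD, 37.01, 34.1 and 30.6 RPKM in PH, and 16.4, 19.4 and 26.8 RPKM in LG. Prosalpha1 was the lowest of the ring in AD, and its highest AD sample lay just under its lowest LG sample. The differences between AD and PH were -1.21 ± 0.16 (adjusted p = 0.000245) for Prosalpha3 and -1.22 ± 0.19 (adjusted p = 0.000678) for Prosalpha1.

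The beta ring carries the 3 catalytic subunits, Prosbeta1 with the caspase-like site, Prosbeta2 with the trypsin-like site and Prosbeta5 with the chymotrypsin-like site. Prosbeta1 had 22.9, 42.3 and 41.9 RPKM in AD, 67.4, 68.2 and 78.7 RPKM in PH, and 70.6, 55.8 and 71.9 RPKM in LG. AD replicate 1 held far less Prosbeta1 than the other AD samples, and the difference of -1.03 ± 0.23 (adjusted p = 0.00429) between AD and PH was no longer called without AD replicate 1 (-0.75), PH replicate 2 (-1.06, adjusted p = 0.0123) or PH replicate 3 (-0.96). Prosbeta5 had 26.5, 24.7 and 29.5 RPKM in AD, 54.4, 49.4 and 46.3 RPKM in PH, and 43.4, 34.5 and 38.4 RPKM in LG. Prosbeta2 had 26.9, 26.9 and 20.8 RPKM in AD, 50.7, 40.9 and 55.01 RPKM in PH, and 29.8, 17.2 and 33.8 RPKM in LG. Both stood lower in AD than in PH at the looser rule and short of the fold threshold, Prosbeta5 by -0.87 ± 0.13 (adjusted p = 0.000424) and Prosbeta2 by -0.95 ± 0.16 (adjusted p = 0.00108). Against LG, Prosbeta2 overlapped between AD and LG (-0.070 ± 0.26, adjusted p = 0.847), while Prosbeta1 (-0.91 ± 0.25, adjusted p = 0.0178) and Prosbeta5 (-0.51 ± 0.15, adjusted p = 0.0247) had every AD sample below every LG sample. Whether these differences differ from each other was not tested, and the Prosbeta2 difference changed sign without AD replicate 3 (0.049), LG replicate 1 (0.027) or LG replicate 3 (0.11).

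Among the structural beta subunits, Prosbeta3 and Prosbeta6 were called lower in AD than in PH, and Prosbeta4 and Prosbeta7 were lower at the looser rule. Prosbeta6, the gene affected in a dominant temperature-sensitive proteasome mutant of the fly, had 12.3, 15.1 and 12.2 RPKM in AD, 29.99, 41.4 and 34.9 RPKM in PH, and 29.5, 39.2 and 25.1 RPKM in LG. Prosbeta3 had 16.3, 17.01 and 17.5 RPKM in AD, 57.1, 44.1 and 39.2 RPKM in PH, and 26.8, 16.97 and 26.2 RPKM in LG. Prosbeta6 in AD stood far below both larval groups, which overlapped, whereas Prosbeta3 in AD overlapped with LG replicate 2 and stood far below PH. Their differences between AD and PH were -1.36 ± 0.16 (adjusted p = 0.000147) for Prosbeta6 and -1.397 ± 0.16 (adjusted p = 0.000101) for Prosbeta3. Prosbeta4 had 17.9, 12.99 and 19.3 RPKM in AD, 33.2, 36.1 and 29.96 RPKM in PH, and 36.8, 29.2 and 24.6 RPKM in LG. Prosbeta7 had 14.7, 12.5 and 14.4 RPKM in AD, 27.97, 26.3 and 25.7 RPKM in PH, and 33.8, 21.7 and 22.5 RPKM in LG. For Prosbeta4 and Prosbeta7 the PH and LG samples overlapped and the AD samples lay apart below them, with a difference between AD and PH of -0.96 ± 0.17 (adjusted p = 0.00142) for Prosbeta4 and -0.90 ± 0.13 (adjusted p = 0.000509) for Prosbeta7.

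The base of the regulatory particle holds a ring of 6 ATPases, Rpt1 to Rpt6, which unfold the substrate and open the gate of the core. All 6 were called lower in AD than in PH. Rpt5, one of the ATPases whose tail docks into the alpha ring, had 23.6, 26.8 and 26.9 RPKM in AD, 73.00, 70.5 and 66.7 RPKM in PH, and 41.6, 38.7 and 42.9 RPKM in LG. Rpt1 had 24.5, 34.5 and 28.1 RPKM in AD, 67.5, 62.2 and 72.5 RPKM in PH, and 38.2, 39.6 and 37.3 RPKM in LG. Rpt6 had 22.2, 17.2 and 23.2 RPKM in AD, 54.2, 46.7 and 44.03 RPKM in PH, and 35.2, 31.7 and 30.1 RPKM in LG. In Rpt5, Rpt1 and Rpt6 the 3 groups did not overlap, and the differences between AD and PH were -1.41 ± 0.11 (adjusted p = 1.46e-05) for Rpt5, -1.20 ± 0.15 (adjusted p = 0.000172) for Rpt1 and -1.18 ± 0.15 (adjusted p = 0.000236) for Rpt6. Rpt4 had 23.7, 33.6 and 34.5 RPKM in AD, 72.4, 64.7 and 59.04 RPKM in PH, and 45.9, 43.03 and 41.7 RPKM in LG. Rpt3, another ATPase with a docking tail, had 31.3, 32.8 and 39.5 RPKM in AD, 73.4, 72.2 and 66.6 RPKM in PH, and 45.5, 55.7 and 48.9 RPKM in LG. Rpt2, the third with such a tail, had 17.1, 19.9 and 22.9 RPKM in AD, 39.8, 44.4 and 39.96 RPKM in PH, and 20.5, 29.7 and 25.1 RPKM in LG. The values of Rpt3 and Rpt4 kept the groups apart, and those of Rpt2 overlapped between AD and LG. The differences between AD and PH were -1.08 ± 0.17 (adjusted p = 0.000588) for Rpt4, -1.02 ± 0.13 (adjusted p = 0.000176) for Rpt3 and -1.02 ± 0.14 (adjusted p = 0.000335) for Rpt2, and each of these calls was lost without AD replicate 1, at -0.92, -0.95 and -0.92 in the same genes. That of Rpt3 was also lost without AD replicate 2 (-0.99) or PH replicate 1 (-0.99) and that of Rpt2 without PH replicate 2 (-0.97).

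The base also holds the large scaffold subunits Rpn1 and Rpn2 and the ubiquitin receptors Rpn10 and Rpn13. Rpn1, which docks shuttle factors that bring ubiquitylated proteins, had 17.3, 18.5 and 20.3 RPKM in AD, 51.2, 47.1 and 64.5 RPKM in PH, and 34.8, 37.3 and 29.8 RPKM in LG. Rpn2, which anchors Rpn13, had 36.2, 39.6 and 42.3 RPKM in AD, 81.5, 78.8 and 76.9 RPKM in PH, and 69.99, 58.3 and 66.5 RPKM in LG. The groups were apart for both scaffolds, and Rpn1 was called lower in AD than in PH with -1.48 ± 0.15 (adjusted p = 5.33e-05), while Rpn2, with -0.99 ± 0.11 (adjusted p = 9.39e-05), fell just short of the fold threshold. Rpn10 had 19.8, 31.9 and 24.4 RPKM in AD, 43.7, 43.4 and 37.99 RPKM in PH, and 19.6, 26.7 and 26.2 RPKM in LG. Rpn13 had 19.6, 22.2 and 17.4 RPKM in AD, 24.8, 24.2 and 27.3 RPKM in PH, and 18.2, 18.4 and 17.1 RPKM in LG. The receptors were the base genes with the smallest differences between AD and PH, -0.72 ± 0.18 (adjusted p = 0.00774) for Rpn10 and -0.36 ± 0.14 (adjusted p = 0.0543) for Rpn13. In both, the AD samples overlapped with the LG samples, and their differences between AD and LG were 0.056 ± 0.22 (adjusted p = 0.853) for Rpn10 and 0.12 ± 0.16 (adjusted p = 0.546) for Rpn13, which turned negative under each of 3 other scalings, at -0.22, -0.20 and -0.28 for Rpn10 and -0.11, -0.13 and -0.21 for Rpn13 (quantile, total reads, reads outside rRNA genes). That Rpn13 differed between AD and PH by less than the other members was not itself tested.

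The lid holds Rpn11, the deubiquitinase that cuts ubiquitin chains off the substrate, its inactive partner Rpn8, and the scaffold subunits Rpn3, Rpn5, Rpn6, Rpn7, Rpn9 and Rpn12. Rpn11 had 44.1, 36.4 and 45.8 RPKM in AD, 100.01, 92.2 and 98.7 RPKM in PH, and 73.8, 77.6 and 80.6 RPKM in LG. Rpn8 had 25.7, 31.5 and 23.3 RPKM in AD, 46.3, 41.6 and 32.4 RPKM in PH, and 33.7, 39.2 and 32.4 RPKM in LG. Rpn11 kept the 3 groups apart and was called lower in AD than in PH (-1.19 ± 0.12, adjusted p = 5.89e-05), while Rpn8 was lower at the looser rule (-0.56 ± 0.17, adjusted p = 0.0222), with PH replicate 3 down among its LG samples. Rpn5 had 41.5, 42.02 and 43.97 RPKM in AD, 131, 121 and 135 RPKM in PH, and 68.1, 75.2 and 70.6 RPKM in LG. Rpn7 had 11.6, 15.7 and 16.3 RPKM in AD, 41.2, 43.8 and 40.8 RPKM in PH, and 30.4, 24.6 and 26.4 RPKM in LG. Rpn3 had 16.3, 22.4 and 19.97 RPKM in AD, 47.3, 47.9 and 52.8 RPKM in PH, and 28.01, 30.5 and 29.9 RPKM in LG. These scaffold genes kept the 3 groups apart, and Rpn5 had the largest difference of all 32 genes between AD and PH, -1.58 ± 0.10 (adjusted p = 4.6e-06), followed by Rpn7 with -1.48 ± 0.15 (adjusted p = 6.09e-05), while Rpn3 had -1.301 ± 0.15 (adjusted p = 9.52e-05). Rpn6, which braces the lid against the core in the yeast particle, had 68.4, 63.3 and 71.3 RPKM in AD, 102, 102 and 114 RPKM in PH, and 67.9, 72.3 and 69.3 RPKM in LG. Rpn9 had 19.1, 34.9 and 28.3 RPKM in AD, 57.2, 54.8 and 53.2 RPKM in PH, and 47.3, 45.01 and 40.1 RPKM in LG. Rpn12 had 30.95, 35.6 and 33.7 RPKM in AD, 83.3, 71.9 and 70.7 RPKM in PH, and 51.9, 48.1 and 49.3 RPKM in LG. Rpn6 was the highest subunit gene in AD and overlapped there with LG, with -0.64 ± 0.11 (adjusted p = 0.00104) between AD and PH and -0.046 ± 0.12 (adjusted p = 0.783) between AD and LG, which was 0.0011 without AD replicate 2. Rpn12 was called between AD and PH with -1.15 ± 0.12 (adjusted p = 6.5e-05), and Rpn9 with -1.02 ± 0.20 (adjusted p = 0.00241), a call lost without AD replicate 1 (-0.79) or PH replicate 1 (-0.99). Sem1 is a small acidic lid subunit whose symbol falls outside the rule for members. Sem1 had 41.1, 48.03 and 44.6 RPKM in AD, 51.9, 37.02 and 23.1 RPKM in PH, and 60.8, 81.2 and 64.3 RPKM in LG. Like most members it was lower in AD than in LG at the looser rule (-0.61 ± 0.16, adjusted p = 0.0132), with every AD sample below every LG sample and an adjusted p of up to 0.0647 over the alternatives. Its AD and PH values overlapped (0.32 ± 0.25, adjusted p = 0.313), it was lower in PH than in LG at the looser rule (-0.92 ± 0.28, adjusted p = 0.037, up to 0.0869 over the alternatives), and 8.67% of its exons overlap the gene Nuf2 on the other strand.

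**Figure D2:**
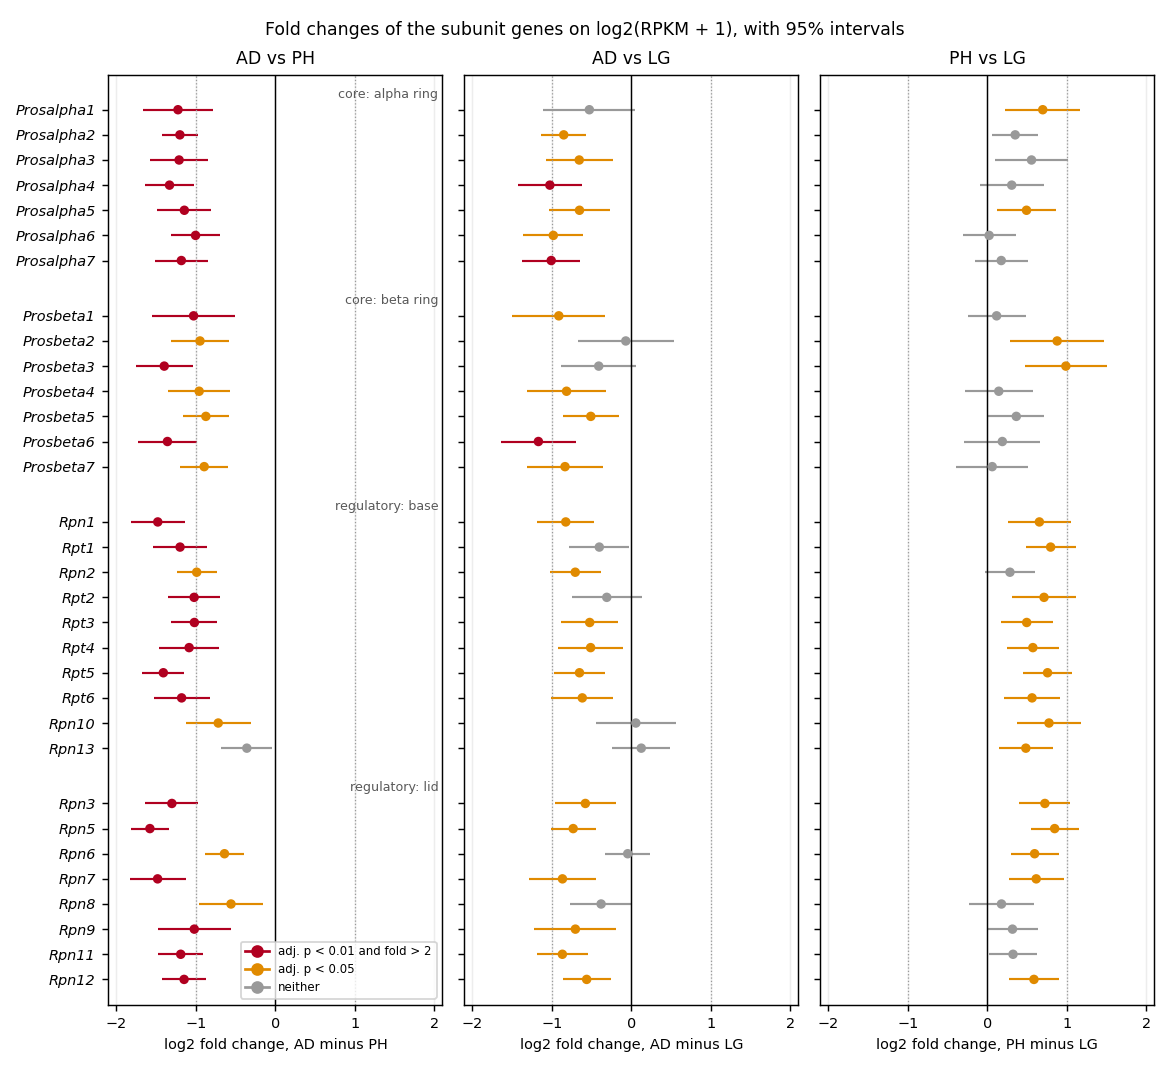
Differences on log2(RPKM + 1) for the 32 canonical genes in AD minus PH, AD minus LG and PH minus LG, with 95% intervals from limma, red for genes called at adjusted p below 0.01 and fold above 2, orange for adjusted p below 0.05 at any fold and grey for neither, and dotted lines at a fold of 2. All 32 points lie left of 0 in AD minus PH (23 red), 30 in AD minus LG (3 red), and all 32 right of 0 in PH minus LG (none red).

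In AD against LG the genes stood lower in AD by a smaller amount. Prosbeta6 (-1.17 ± 0.20, adjusted p = 0.00216), Prosalpha4 (-1.02 ± 0.17, adjusted p = 0.00205) and Prosalpha7 (-1.01 ± 0.16, adjusted p = 0.00128), all of the core, were called lower in AD and none of the 32 genes was called higher, against 10.4% of 7748 genes tested called lower and 20% called higher. The looser rule gave 23 genes lower and none higher, against 21.1% of all genes lower and 28% higher. In 26 of the 32 every AD sample was below every LG sample, against 25.7% of all genes, and in none every AD sample above every LG sample, against 32.6%. The median difference was -0.65 over the 32 genes, -0.82 over the core genes, -0.57 over the regulatory genes and 0.071 over all genes tested. Next to the calls in size came Prosalpha6 (-0.98 ± 0.16, adjusted p = 0.00172), just under the fold threshold, then Prosbeta1 (-0.91), Rpn11 (-0.87 ± 0.14, adjusted p = 0.00156) and Rpn7 (-0.87 ± 0.18, adjusted p = 0.00551), while Rpt2 (-0.31 ± 0.19, adjusted p = 0.217) was within the spread of the samples. The 3 calls stood near the threshold. Prosalpha6 was the 1 gene called without AD replicate 1 and without LG replicate 2, Prosbeta6 the 1 gene called without LG replicate 1, and Prosalpha6 and Prosalpha7 the 2 genes called without AD replicate 3. The number of genes called was 0 with a pseudocount of 5, and 13, 11 and 14 with quantile normalization, scaling to total reads and scaling to reads outside rRNA genes. At those 3 scalings all 32 differences were negative.

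In PH against LG none of the 32 genes was called in limma, although all 32 differences were positive as deposited and only 19 of them with scaling to total reads, 22 with quantile normalization and 25 with scaling to reads outside rRNA genes. Of 7088 genes tested, 7.63% were called higher in PH and 6.57% lower. At an unadjusted p-value below 0.05 in limma, 22 of the 32 genes were higher in PH and 0 lower, against 22.3% and 20.1% of all genes. The looser rule gave 18 genes higher in PH and none lower, against 17% and 14.7% of all genes, a number that was 6, 0 and 7 under quantile normalization and scaling to total reads and to reads outside rRNA genes, and 6, 7 and 9 without PH replicate 1, PH replicate 2 and LG replicate 3. These 18 were 9 of the 10 base genes, 5 of the 8 lid genes, 2 of the 7 alpha genes and 2 of the 7 beta genes. In 25 of the 32 genes every PH sample was above every LG sample, against 24.7% of all genes, with 23.1% the other way round. The widest differences were those of Prosbeta3 (0.99 ± 0.23, adjusted p = 0.0126), Prosbeta2 (0.88 ± 0.26, adjusted p = 0.0331) and Rpn5 (0.85 ± 0.13, adjusted p = 0.00253), followed by the ATPase Rpt1 (0.80 ± 0.14, adjusted p = 0.00391), the receptor Rpn10 (0.77 ± 0.17, adjusted p = 0.0114) and the ATPase Rpt5 (0.76 ± 0.13, adjusted p = 0.00443). At the other end, Prosalpha6 (0.022 ± 0.14, adjusted p = 0.924), Prosbeta7 (0.061 ± 0.20, adjusted p = 0.839) and Prosbeta1 (0.12 ± 0.16, adjusted p = 0.614) had PH and LG samples that overlapped, and their differences were negative under all 3 other scalings. The median difference was 0.33 over the core genes, 0.59 over the regulatory genes and 0.013 over all genes tested.

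The scaling between samples moved the median of all genes as well as that of the members. The median of the 32 genes minus that of all genes tested was -1.19 in AD against PH as deposited, and -1.01, -1.16 and -1.21 with quantile normalization, scaling to total reads and scaling to reads outside rRNA genes. The same quantity was -0.72 in AD against LG as deposited, and -0.75, -0.76 and -0.77 with these scalings in the same order. In PH against LG it was 0.51 as deposited, and 0.27, 0.46 and 0.48. Relative to the median gene, the members thus stood lower in AD than in either larval group, and higher in PH than in LG, under every scaling tried. The 14 core genes alone were the exception in PH against LG, with a median of -0.016 under quantile normalization beside -0.012 over all genes. The share of calls over all genes that were higher in AD was 62.3% against PH and 65.9% against LG as deposited, and 49.6% and 50.2% with quantile normalization.

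**Figure D3:**
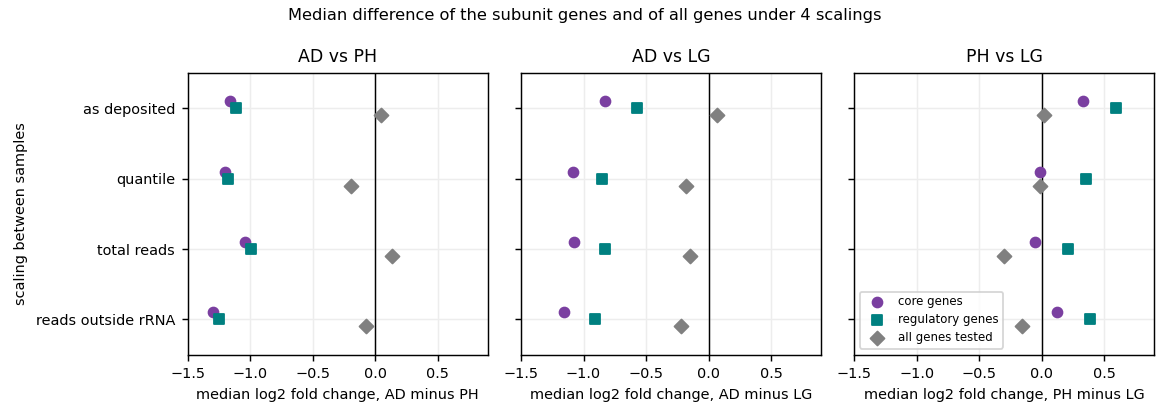
Median difference on the log2 scale of the 14 core genes (circles), the 18 regulatory genes (squares) and all genes tested (diamonds), for each pair of groups and 4 scalings between samples. Core and regulatory genes stay left of all genes in AD minus PH and AD minus LG, and in PH minus LG they lie right of them except for the core median with quantile normalization (-0.016, against -0.012 for all genes).

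Summed over their genes, core and regulatory particle were both lowest in AD. The 14 core genes summed to 354, 376 and 393 RPKM in AD, 884, 812 and 810.5 RPKM in PH, and 706, 625 and 652 RPKM in LG. The 18 regulatory genes summed to 493, 559 and 562 RPKM in AD, 1190.1, 1129 and 1154 RPKM in PH, and 771, 792 and 764 RPKM in LG. The AD mean was 44.8% of the PH mean and 56.6% of the LG mean for the core, and 46.5% and 69.4% of them for the regulatory genes. The regulatory sum divided by the core sum, which a factor applied to a whole sample does not move, was 1.39, 1.49 and 1.43 in AD, 1.35, 1.39 and 1.42 in PH, and 1.09, 1.27 and 1.17 in LG. AD and PH overlapped in this ratio, and all 6 of their samples lay above the 3 LG samples. Without the highest gene of each particle the ratio averaged 1.49 ± 0.07 in AD against 1.47 ± 0.05 in PH and 1.26 ± 0.10 in LG (SD, n = 3), and the highest LG sample, at 1.36, stood just below the lowest PH sample, at 1.41.

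The sums were also set against other RNAs of the same sample. The 32 genes took 0.221, 0.240 and 0.257% of the reads outside rRNA genes in AD, 0.581, 0.568 and 0.571% in PH, and 0.496, 0.442 and 0.474% in LG, and the 95% Wilson intervals, which cover counting error only, spanned 0.214 to 0.264% over the AD samples, 0.559 to 0.589% over PH and 0.431 to 0.505% over LG. The intervals of the groups did not overlap. Ranked among the genes above 1 RPKM in a sample, the 32 genes had a median percentile of 79.7 to 82.3 in AD, against 89.8 to 90.2 in PH and 88.5 to 89.0 in LG. Set against the 88 ribosomal protein genes, the order changed. The 32 genes had 3.21, 2.95 and 3.56 RPKM per 100 RPKM of ribosomal protein genes in AD, 4.93, 4.66 and 4.23 in PH, and 3.16, 2.35 and 2.53 in LG, so that AD lay below PH and overlapped with LG. The measure was chosen after the values were seen. The ribosomal protein genes themselves summed to a mean of 28320 RPKM in AD, against 43371 RPKM in PH and 54395 RPKM in LG.

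**Figure D4:**
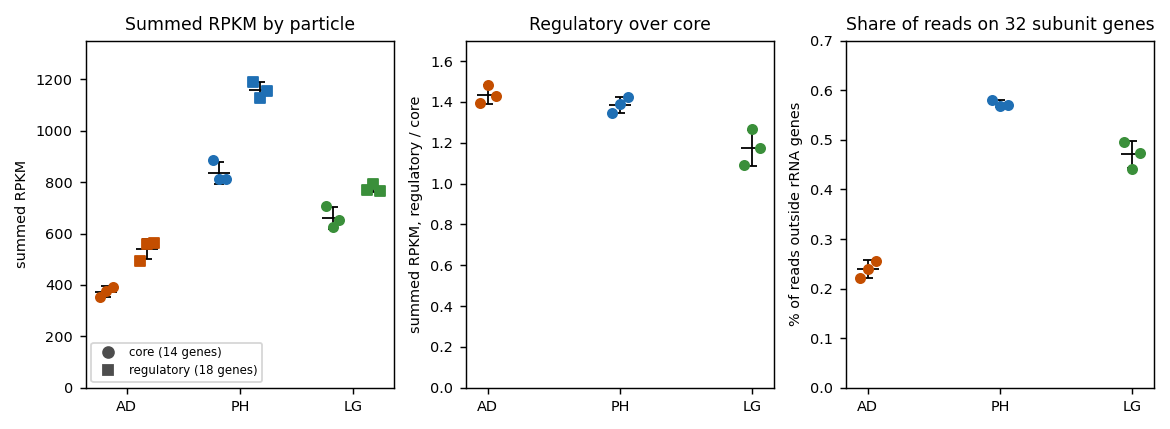
Summed RPKM of the core (circles) and regulatory (squares) genes, their ratio, and the percentage of reads outside rRNA genes that fell on the 32 genes, with 1 point per sample, the mean as a dash and bars of 1 SD (n = 3). The share of reads runs from 0.221 to 0.257% in AD, against 0.568 to 0.581% in PH and 0.442 to 0.496% in LG, and the ratio is at least 1.35 in every AD and PH sample and at most 1.27 in LG.

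The paralogs with a T or an R in their suffix, several of which are known in the fly from the male germ line, were close to absent from all 3 populations. Together the 15 genes held 21 reads in the 9 samples, against 93946 reads on the 32 canonical genes. 10 of them had no read in any sample: Prosalpha3T, Prosalpha4T1, Prosalpha4T2, Prosalpha6T, Prosbeta2R1, Prosbeta2R2, Prosbeta5R1, Prosbeta5R2, Rpt4R and Rpt6R. A limit of 3 reads in the shallowest library of a group puts these genes under 0.648 to 1.12 RPKM in AD, against 0.508 to 0.877 RPKM in PH and 0.645 to 1.11 RPKM in LG, depending on the length of their exons. The canonical genes they derive from were never listed at 0. Prosbeta4R1 had 5 reads (1.99 RPKM) in AD replicate 1 and none elsewhere. Prosbeta4R2 had 1 read in AD replicate 3 (0.183 RPKM) and 8 reads in PH replicate 2 (0.882 RPKM), and it shares 69 bases of exon on the same strand with Or23a, which was listed at 0 in all samples. Rpt3R had 2 reads in PH replicate 1 and 1 each in LG replicates 1 and 3, Rpn13R had 1 read each in PH replicate 1 and LG replicate 1, and Rpn12R had 1 read in AD replicate 3. No paralog passed the filter of the test, and none had reads in all samples of a group. The 14 testis markers, 7 of them at 0 in all samples, summed to 0.81 to 2.17 RPKM in AD, against 0.50 to 1.26 RPKM in PH and 1.67 to 3.02 RPKM in LG. Where a paralog and its canonical gene share sequence, reads could be assigned to either or dropped, and how the counting treated such reads was not tested.

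Reads counted without strand would also be shared between genes whose exons overlap on opposite strands, and 13 of the canonical genes overlap another gene in this way. The widest overlap was that of Rpt6 with CG1801, over 13.0% of the Rpt6 exons, and CG1801 was listed at 0 in every sample. Rpn9 overlapped CG10365 over 7.44% of its exons. CG10365 was at 17.3, 13.8 and 12.8 RPKM in AD, 4.75, 3.94 and 1.57 RPKM in PH, and 10.2, 8.48 and 11.3 RPKM in LG, thus highest in AD, where Rpn9 was lowest. CG34376, over 6.32% of the Rpn7 exons, was highest in AD, where Rpn7 was lowest. Prosbeta2 shared 7.93% of its exons with Reck. Reck was at 1.94 to 3.33 RPKM in AD, 8.58 to 17.7 RPKM in PH and 0 to 0.393 RPKM in LG. Rpt2 shared 7.14% of its exons with CG31142. CG31142 was at 3.75 to 10.8 RPKM in AD, 20.6 to 23.0 RPKM in PH and 8.71 to 17.7 RPKM in LG. Both were highest in PH, as were Prosbeta2 and Rpt2. The part of the overlaps in the differences was not tested.

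Genes that work with the proteasome were divided into partners of the particle, genes of ubiquitin supply and shuttling, and the COP9 signalosome, a complex related to the lid. Of the 12 partner genes, 3 were called lower in AD than in PH and none higher, against 13.9% and 23% of all genes, with a median difference of -0.27. At the looser rule 4 were lower and 2 higher, against 26.7% and 32.7%. Uch-L5, the deubiquitinase that binds Rpn13, had 12.8, 14.2 and 9.54 RPKM in AD, 55.5, 49.7 and 66.9 RPKM in PH, and 38.5, 26.5 and 37.7 RPKM in LG. Usp14, another deubiquitinase that binds the regulatory particle, had 21.5, 21.1 and 22.4 RPKM in AD, 58.8, 57.1 and 53.6 RPKM in PH, and 37.99, 34.6 and 38.7 RPKM in LG. Pomp, the assembly factor of the core, had 17.6, 21.8 and 18.5 RPKM in AD, 53.3, 45.4 and 57.1 RPKM in PH, and 21.2, 28.1 and 26.4 RPKM in LG. No AD sample of these 3 genes reached a larval sample except in Pomp, where AD and LG overlapped. The difference between AD and PH was -2.15 ± 0.18 (adjusted p = 1.69e-05) for Uch-L5, -1.34 ± 0.11 (adjusted p = 1.66e-05) for Usp14 and -1.38 ± 0.14 (adjusted p = 5.89e-05) for Pomp. Uch-L5 was the only partner called between AD and LG (-1.41 ± 0.22, adjusted p = 0.0012), against 10.4% of all genes called lower and 20% higher. Pomp was the only one called between PH and LG (1.02 ± 0.17, adjusted p = 0.00354), against 7.63% of all genes called higher and 6.57% lower. That call of Pomp was lost under 11 of 16 alternatives. Pomp shares 40.0% of its exons with vari on the opposite strand, and vari was at 20.1 to 25.4 RPKM in AD, against 33.0 to 41.0 RPKM in PH and 9.70 to 26.01 RPKM in LG, so that reads of the 2 genes cannot be told apart if strand was not used in the counting. At the looser rule cnc (0.63 ± 0.16, adjusted p = 0.00995) and its partner maf-S (0.78 ± 0.25, adjusted p = 0.0261, up to 0.0741 over the alternatives) stood higher in AD than in PH. cnc had 16.4, 18.9 and 16.4 RPKM in AD, 10.1, 12.9 and 9.62 RPKM in PH, and 11.4, 18.8 and 13.00 RPKM in LG. In cnc every AD sample was above every PH sample, which was so for 35.3% of all genes, in the direction opposite to the subunit genes. Between AD and LG the cnc samples overlapped (0.27 ± 0.21, adjusted p = 0.32). Whether cnc has a part in the levels of the subunit genes was not tested.

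Of the 12 genes of ubiquitin supply and shuttling, 11 were tested, of which 6 were lower and 2 higher in AD than in PH at the looser rule, against 26.7% and 32.7% of all genes. TER94, the unfolding ATPase that hands ubiquitylated proteins on, was called lower in AD than in PH (-1.05 ± 0.11, adjusted p = 7.83e-05), whereas its cofactor Npl4 was called higher (3.44 ± 0.16, adjusted p = 9.28e-07). No other gene of the 11 was called between AD and PH, against 13.9% of all genes called lower and 23% higher. The TER94 call was lost with a pseudocount of 5 (-0.98), scaling to total reads (-0.93) and without AD replicate 2 (-0.997). TER94 had 37.9, 34.6 and 40.2 RPKM in AD, 82.04, 81.4 and 73.6 RPKM in PH, and 49.5, 45.3 and 43.4 RPKM in LG. Npl4 had 71.6, 67.9 and 65.9 RPKM in AD, 6.92, 4.84 and 4.62 RPKM in PH, and 4.33, 6.80 and 4.83 RPKM in LG. Npl4 in AD stood far above both larval groups, which overlapped, and TER94 in AD lay below both. Between AD and LG, Npl4 (3.48 ± 0.18, adjusted p = 8.34e-06) and the polyubiquitin genes Ubi-p5E (1.76 ± 0.19, adjusted p = 0.000215) and Ubi-p63E (1.45 ± 0.19, adjusted p = 0.000616) were called higher in AD, and RpS27A, which encodes ubiquitin fused to a ribosomal protein, lower (-1.06 ± 0.14, adjusted p = 0.000596). These were 3 of the 11 genes higher and 1 lower, against 20% and 10.4% of all genes. Ubi-p5E had 74.8, 79.3 and 77.6 RPKM in AD, 43.04, 38.9 and 40.97 RPKM in PH, and 19.6, 29.7 and 18.7 RPKM in LG. Ubi-p63E had 42.4, 43.00 and 46.8 RPKM in AD, 45.4, 28.4 and 28.2 RPKM in PH, and 11.6, 18.6 and 17.04 RPKM in LG. RpS27A had 877, 1031 and 911 RPKM in AD, 1442, 1536 and 1698 RPKM in PH, and 1762, 2082 and 2019.96 RPKM in LG. Ubi-p5E kept the 3 groups apart, while Ubi-p63E overlapped between AD and PH. The ubiquitin genes share near-identical repeats, so that reads could have been assigned between them, and their separate values are uncertain. Of the 9 COP9 signalosome genes 8 were tested, of which 6 were lower in AD than in PH at the looser rule and none higher, against 26.7% and 32.7% of all genes, with a median of -0.65 over the 8. Called lower, against 13.9% of all genes, were CSN5 (-1.61 ± 0.21, adjusted p = 0.000241), the catalytic subunit that resembles Rpn11, and CSN4 (-1.15 ± 0.18, adjusted p = 0.000775), the call of CSN4 being lost with a pseudocount of 5 (-0.97) and without AD replicate 3 (-0.97). CSN5 had 10.2, 6.64 and 8.84 RPKM in AD, 30.1, 21.7 and 32.8 RPKM in PH, and 16.95, 22.4 and 26.3 RPKM in LG. CSN4 had 15.2, 15.5 and 10.1 RPKM in AD, 33.99, 31.4 and 27.9 RPKM in PH, and 25.3, 25.00 and 28.2 RPKM in LG. CSN5 was also called lower in AD than in LG (-1.25 ± 0.23, adjusted p = 0.00287), against 10.4% of all genes. This call of CSN5 was lost with a pseudocount of 5 (-0.98) and without AD replicate 2 (-1.10, adjusted p = 0.0126), AD replicate 3 (-1.28, adjusted p = 0.0114) or LG replicate 3 (-1.11, adjusted p = 0.0141). In CSN5 and CSN4 the AD samples lay below all larval samples. Of all genes, 30.1% had every AD sample below every PH sample, and 25.7% below every LG sample. No COP9 gene was called between PH and LG, where 7.63% of all genes were called higher and 6.57% lower.

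**Figure D5:**
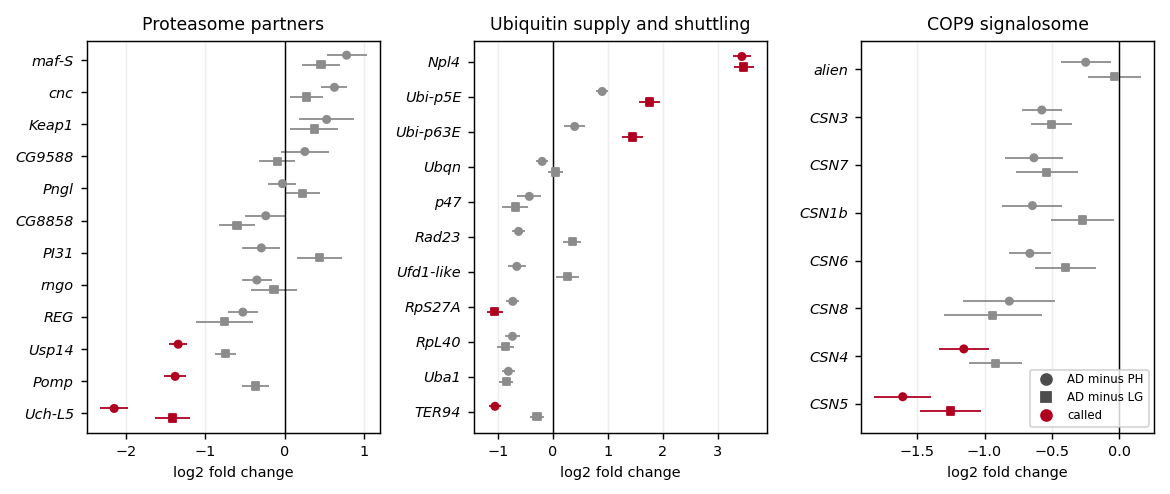
Differences on log2(RPKM + 1) for the tested genes of the 3 lists in AD minus PH (circles) and AD minus LG (squares), with bars of 1 SE from limma and red for genes called. Uch-L5 lies at the left at -2.15 and -1.41, and Npl4 at the right at 3.44 and 3.48.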

How the data were processed

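RNA of 9 samples was sequenced, in 3 groups of 3. Per the study's methods, the authors went from trimmed reads (Trimmomatic) by alignment to dm6 (Hisat2) to counts per gene (HTSeq-Count) and RPKM (Cufflinks), and tested with DESeq2. The submitters' processing notes give Trimmomatic 0.32, HISAT2 2.1.0, HTSeq 0.5.4p5, Cufflinks 2.2.1 and DESeq2 1.2.8. Whether the counting used strand is not given in the sources used here, and labels and paper differ on RNA kit and sequencer. The deposited values are RPKM with decimal commas, and the authors' table holds no other unit. Multiplied by the exon lengths of Ensembl BDGP6.54, 97.8 to 98.0% of the values were whole reads within 0.02, for library totals that run parallel to median-of-ratios size factors. No count test was run on these reads.

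Each pair of groups was tested in R 4.3.3 with the package limma 3.58.1 (lmFit, eBayes with trend, two-sided, Benjamini-Hochberg) on log2(RPKM + 1) of the 6 samples, over genes above 1 RPKM in at least 3 of them. In simulated data, 200 genes had a log2 change of 1.3. The test called 56% of them in AD against PH (7692 genes), 30% in AD against LG (7748) and 32.5% in PH against LG (7088). The cutoff set by Benjamini-Hochberg depends on how many genes change, and the real AD against PH test gave 1773 upward and 1071 downward calls. These percentages therefore do not tell what share of such changes the real tests missed. Tables were handled in Python 3.11.15 with pandas 2.3.3 and drawn with matplotlib 3.10.9. The members and lists were chosen with earlier results of these data known. All members may be named, with values of every sample for members called in at least 1 comparison, the catalytic subunits, Rpn11, the highest and lowest of core, base and lid and paralogs above 0; values of every sample for other canonical genes were added. Of the lists, the called genes are named, and Sem1, cnc, maf-S, Rad23 and Uba1 were named after their values were seen. Alternatives were other pseudocounts (0.1 and 5), filters (none, and 5 RPKM), scalings, array weights, 1 fit of all 9 samples, a block for the replicate number and leaving out each replicate. No sequence was analysed here.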

Additional observations from a re-analysis of the deposited data

How the results depend on the processing

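In AD against PH, the number of canonical subunit genes called lower stayed between 17 and 28 under all alternatives and none was called higher. With a pseudocount of 5, 1073 genes of the whole table were called higher and 638 lower in AD against PH, 439 lower in AD against LG, where no subunit gene was left called (0 of 32), and 252 lower in PH against LG. With quantile normalization, scaling to total reads and scaling to reads outside rRNA genes, 13, 11 and 14 subunit genes were called lower in AD against LG, with medians of -0.93, -0.91 and -0.99, and the looser rule gave 6, 0 and 7 subunit genes higher in PH against LG, with medians of 0.26, 0.15 and 0.32. Over all genes, 1324 were called lower in AD against LG with scaling to reads outside rRNA genes, and 320 higher and 732 lower in PH against LG with scaling to total reads. No filter gave 296 genes lower in PH against LG. Array weights gave 761 genes lower in PH against LG and left 1 subunit gene called in AD against LG. The cause of these shifts was not tested. Of the calls of all genes in PH against LG, 53.7% were higher as deposited, and 30.4% and 38.2% with scaling to total reads and to reads outside rRNA genes, and in AD against LG 65.9% as deposited and 52.4% and 47.8% with the same scalings.

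Leaving out 1 replicate in turn gave 20 to 25 subunit genes called lower in AD against PH, 1 to 3 in AD against LG, and 6 to 18 genes higher in PH against LG at the looser rule. The medians ran from -1.19 to -1.08, from -0.72 to -0.62 and from 0.47 to 0.57 in the 3 comparisons. Over all genes, 1050 to 1658 were called higher and 830 to 1025 lower in AD against PH, 758 to 1573 higher and 415 to 688 lower in AD against LG, and 217 to 670 higher and 166 to 502 lower in PH against LG. Where a replicate was left out, its group kept 2 samples.

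Single differences changed sign under some alternatives. In AD against LG these were Rpn13 with quantile normalization (-0.11), total reads (-0.13) and reads outside rRNA genes (-0.21), Rpn10 with the same scalings (-0.22, -0.20 and -0.28) and array weights (-0.054), and cnc with reads outside rRNA genes (-0.056). Without 1 replicate, Rpn10 ranged from -0.12 (without AD replicate 2) to 0.22, Prosbeta2 from -0.35 to 0.11 (without LG replicate 3) and Rpn6 from -0.084 to 0.0011 (without AD replicate 2). In PH against LG, 10, 13 and 7 of the 32 subunit differences were negative with quantile normalization, total reads and reads outside rRNA genes. Only some of them are listed here, and Prosbeta5 (0.36) and Rpn11 (0.32) were not near 0 as deposited. These scalings, in the same order, gave -0.23, -0.26 and -0.092 for Prosbeta1, -0.26, -0.35 and -0.19 for Prosalpha6 and -0.11, -0.31 and -0.14 for Prosbeta7. Rpn11 was at -0.042 with quantile normalization and -0.057 with total reads, Prosbeta5 at -0.011, CSN5 at -0.015 and Npl4 at -0.28 with total reads, Npl4 at -0.14 with reads outside rRNA genes and Prosbeta1 at -0.025 with array weights. Without 1 replicate, Prosalpha6 ranged from -0.047 to 0.10, Prosbeta7 from -0.050 to 0.26 and Npl4 from -0.12 to 0.20. None of these differences was called.

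The labels give the groups the same replicate numbers, but deviations of samples with the same number correlated at -0.11 to 0.05, so the numbers were not taken to pair the samples. With the replicate number as a block, 23 subunit genes were called lower in AD against PH, 3 in AD against LG and 0 in either direction in PH against LG, where the looser rule gave 13 genes. The medians with the block were -1.15, -0.65 and 0.52.

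The low read numbers of AD and of LG replicate 2 limit what can be seen of paralogs, and 3 samples a group limit the smaller differences. A search of promoters for motifs and its alternative window were not run, and neither was the identity between paralogs, since no sequences were used here.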

Other observations

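At an adjusted p-value below 0.05 at any fold in limma, 5 of the 11 tested genes of ubiquitin supply and shuttling were higher in PH than in LG and none lower, against 17% and 14.7% of all genes tested; none of the 5 passed the stricter rule. Among them were the shuttle factor Rad23, with 46.96 RPKM in PH and 23.5 RPKM in LG (0.98 ± 0.16, SE, adjusted p = 0.00297), and TER94, with 79.0 RPKM in PH and 46.1 RPKM in LG (0.77 ± 0.14, SE, adjusted p = 0.00464). With scaling to total reads these differences no longer passed, at 0.60 (adjusted p = 0.0783) for Rad23 and 0.39 (adjusted p = 0.232) for TER94. Uba1, the ubiquitin-activating enzyme, averaged 59.0 RPKM in AD against 104 RPKM in PH and 107 RPKM in LG, with a difference of -0.81 ± 0.12 in AD against PH (adjusted p = 0.000419) and of -0.85 ± 0.13 in AD against LG (adjusted p = 0.00131), short of the fold threshold in both.

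The spread between replicates of the canonical subunit genes, as the median coefficient of variation over the 32 genes, was 13.1% in AD against 7.95% in PH and 10.6% in LG. AD libraries also held the fewest reads on these genes, 3685 to 4560 per sample, against 10985 to 18799 in PH and 6107 to 18019 in LG.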
